A study of Mus musculus with 2 samples.

Results

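Adipocyte genes were followed across the spots of a Visium spatial transcriptomics experiment on fracture calluses. The genes were the 9 rows of the count tables with the symbols Adipoq, Cfd, Plin1, Lpl, Fabp4, Pparg, Cebpa, Cidec and Lep, out of 19430 named genes. They were chosen by symbol, with no measured value in the rule, and all 9 were present in both tables. Visium captures RNA on a grid of barcoded spots that are 100 µm apart, so 1 spot reads a small area that may include more than 1 cell and cell type. Counts are unique molecular identifiers (UMIs), and levels are given as CPM, the UMIs of a gene scaled to the summed UMIs of the same spots.

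The sections held the calluses of 2 female littermates of 8 weeks, taken 10 days after a distal tibia fracture that was stabilised with an intramedullary pin. The control mouse was Postn-cre- and Nf1+/fl, and thus carried 1 floxed Nf1 allele without Cre. The Nf1Postn mouse was Postn-cre;Nf1 fl/-, with Cre driven by the Postn promoter in periosteal cells and the other Nf1 allele null. Both calluses were fixed in formalin, decalcified in 14% EDTA and embedded in the same paraffin block, and 2 sections of 5 µm were analysed. The labels call the sections biological replicates, but the series' own design text has both calluses in the block and 2 cuts through it. Each genotype was therefore read as 1 mouse, no test between genotypes was made, and section 1 and section 2 show the spread between cuts of the same animals. All intervals given are exact 95% intervals that cover counting error only.

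Of 6380 spots under tissue, 6375 had a genotype. Section 1 held 1700 control and 1341 Nf1Postn spots, and section 2 held 1778 and 1556. Depth differed between the calluses: median UMIs per spot were 7053 and 5718.5 in the control and 2030 and 3239.75 in Nf1Postn. The tissue on the sections also differed. The summed level of 5 skeletal muscle genes was 10591 and 15250 CPM in the control and 48306 and 86735 CPM in Nf1Postn, while that of 5 cartilage genes was 44930 and 28296 CPM in the control and 3891 and 7944 CPM in Nf1Postn. With 1 mouse per genotype, genotype, animal and the amount of surrounding tissue cut with the callus cannot be told apart. Because both sections used the same barcoded grid, 2711 spot barcodes occurred in both.

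Adipocytes store triglyceride in a large lipid droplet and secrete adipokines. In the lower leg they are found in the marrow, around muscle and under the skin, and their differentiation is driven by PPARγ and C/EBPα. Several genes used as adipocyte markers are also active elsewhere: Fabp4 in capillary endothelium and macrophages, Lpl in muscle and macrophages, and Cebpa in myeloid cells. Adipoq, Cfd, Plin1 and Cidec are the more restricted markers.

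Of the secreted products, Adipoq (adiponectin; chr16:22965286-22976779, mm39) had 31.0 CPM (421 UMIs) and 20.3 CPM (246 UMIs) in the control sections, against 11.3 CPM (39 UMIs) and 11.5 CPM (69 UMIs) in the Nf1Postn sections. Cfd (adipsin, complement factor D; chr10:79726687-79728490) had 74.3 CPM (1008 UMIs) and 34.2 CPM (414 UMIs) in the control, and 22.2 CPM (77 UMIs) and 32.8 CPM (196 UMIs) in Nf1Postn. For Adipoq both control sections lay above both Nf1Postn sections, as they did for 33% of the 13186 genes with at least 50 UMIs, so this order alone did not set it apart, while for Cfd section 2 was at almost the same level in both calluses. Lep (leptin; chr6:29060219-29073877) was near the limit of detection, with 31 UMIs in all and between 0.74 and 1.504 CPM in the 4 groups.

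Promoters of Adipoq, Cfd and Plin1, the members that lay together most closely over the tissue, are shown as the 250 bases before the transcription start, 5′ to 3′ on the gene's strand (RefSeq, GRCm38.p6), with CCAAT (either strand) and TTGCNNAA, a letter pattern like the one that C/EBP proteins bind, in capitals. Adipoq lies at chr16:23146286-23146535 on the plus strand, Cfd at chr10:79890603-79890852 on the plus strand and Plin1 at chr7:79732777-79733026 on the minus strand.
Adipoq: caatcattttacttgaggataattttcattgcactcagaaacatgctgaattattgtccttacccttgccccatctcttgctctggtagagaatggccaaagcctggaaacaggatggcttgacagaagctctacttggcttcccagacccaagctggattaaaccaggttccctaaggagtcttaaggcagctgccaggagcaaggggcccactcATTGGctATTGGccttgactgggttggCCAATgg
Cfd: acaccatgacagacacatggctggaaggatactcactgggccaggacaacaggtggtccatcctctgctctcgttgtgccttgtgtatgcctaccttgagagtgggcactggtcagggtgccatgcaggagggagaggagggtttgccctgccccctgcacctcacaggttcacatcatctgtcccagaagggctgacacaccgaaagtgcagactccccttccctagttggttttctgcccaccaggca
Plin1: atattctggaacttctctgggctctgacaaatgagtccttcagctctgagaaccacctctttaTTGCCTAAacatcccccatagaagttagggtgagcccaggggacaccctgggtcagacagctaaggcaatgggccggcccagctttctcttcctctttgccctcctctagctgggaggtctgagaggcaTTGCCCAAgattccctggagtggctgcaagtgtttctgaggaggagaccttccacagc
The letters CCAAT occurred 3 times before the Adipoq start, at −34, −27 and −7, the first pair on the opposite strand, and TTGCNNAA occurred at −187 and −58 before the Plin1 start. Neither pattern, nor AGGTCA, the hexamer of many nuclear receptors, was found in the Cfd window. Searched on both strands in 300 bases (250 before to 50 after the start), CCAAT was present in 37.4%, TTGCNNAA in 10.8% and AGGTCA in 16.3% of 32851 mouse promoters. Of the 9 genes, 7 had entries in the promoter table, 10 entries in all; Lpl and Fabp4 had none. TTGCNNAA was present in an entry of 4 of these 7 genes (Plin1, Pparg, Cidec and Lep), CCAAT of 2 (Adipoq and Pparg) and AGGTCA of 1 (Pparg). Counted per entry, like the shares of all promoters, TTGCNNAA was present in 4, CCAAT in 3 and AGGTCA in 2 of the 10 entries. Pparg has 3 starts in the table, and its patterns differed between them. These matches describe letters only and were not tested against binding.

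The lipid droplet coat protein gene Plin1 (chr7:79369966-79382652) had 19.6 CPM (266 UMIs) and 10.97 CPM (133 UMIs) in the control and 6.64 CPM (23 UMIs) and 8.02 CPM (48 UMIs) in Nf1Postn. Its control sections lay above its Nf1Postn sections, again as for 33% of genes, and in section 2 the counting interval of the log2 ratio (-0.96 to 0.03) included 0. Cidec, which promotes droplet fusion (chr6:113401595-113412722), had 2.88 CPM (39 UMIs) and 1.15 CPM (14 UMIs) in the control, and 1.16 CPM (4 UMIs) and 1.67 CPM (10 UMIs) in Nf1Postn. The Cidec groups overlapped, and its counts were too low to order them.

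The lipid uptake genes behaved differently. Lpl (lipoprotein lipase; chr8:69333143-69360101) had 180 CPM (2443 UMIs) and 190 CPM (2307 UMIs) in the control, and 221 CPM (764 UMIs) and 268 CPM (1601 UMIs) in Nf1Postn. For Lpl both Nf1Postn sections lay above both control sections, as for 28.8% of genes, with a ratio of 1.23 in section 1 and 1.41 in section 2. Fabp4 (fatty acid binding protein; chr3:10269148-10273637) had 387 CPM (5246 UMIs) and 295 CPM (3571 UMIs) in the control, and 363 CPM (1256 UMIs) and 359 CPM (2147 UMIs) in Nf1Postn, which lay between the control sections.

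Among the transcription factors, Pparg (chr6:115337912-115467361) had 5.16 CPM (70 UMIs) and 5.28 CPM (64 UMIs) in the control and 2.60 CPM (9 UMIs) and 4.85 CPM (29 UMIs) in Nf1Postn. Cebpa (chr7:34818718-34821354) had 83.8 CPM (1137 UMIs) and 89.9 CPM (1090 UMIs) in the control. In Nf1Postn it had 84.9 CPM (294 UMIs) in section 1 and 56.5 CPM (338 UMIs) in section 2, so that its Nf1Postn sections were farther apart than the control sections. Probe capture differs between genes, so these levels order samples within a gene and not genes among themselves.

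**Figure D1:**
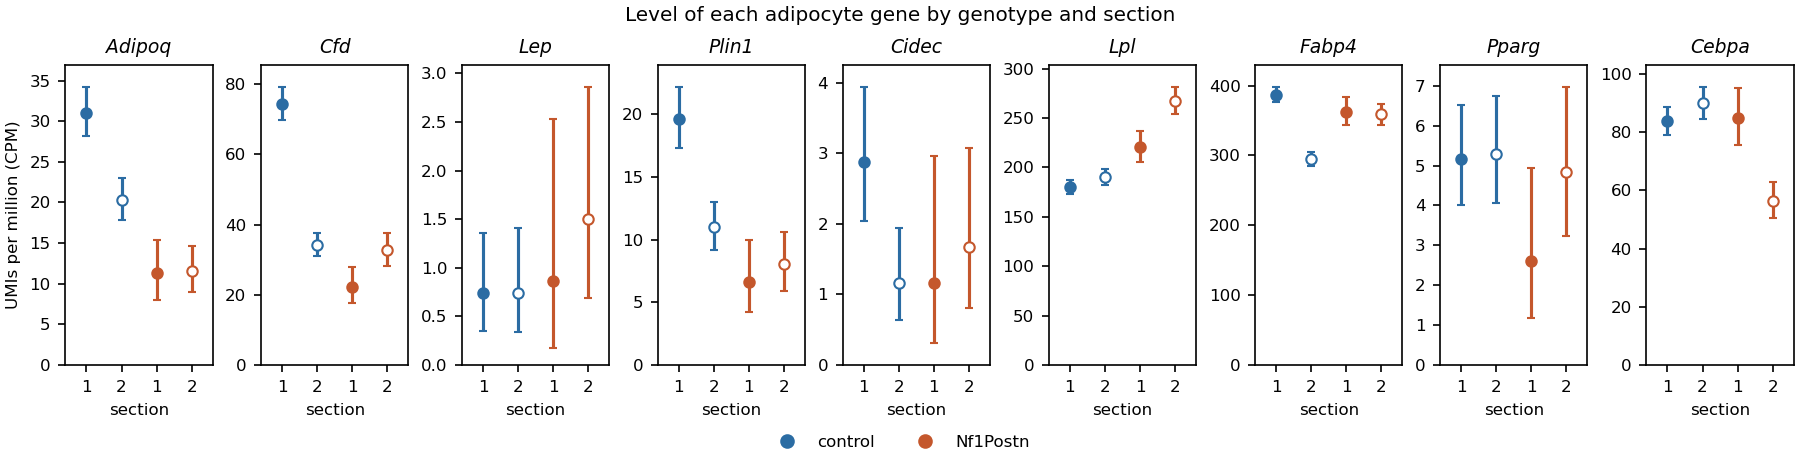
Level of each of the 9 adipocyte genes in CPM (linear axes from 0, a scale for each gene), by section, for control (blue) and Nf1Postn (orange); filled points are section 1, open points section 2, and bars are exact 95% Poisson intervals. Adipoq was at 31.0 and 20.3 CPM in the control and at 11.3 and 11.5 CPM in Nf1Postn, whereas Fabp4 in Nf1Postn (363 and 359 CPM) lay between the control sections (387 and 295 CPM).

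Set against all genes, no member differed by 2-fold or more between the calluses in both sections. This was 0 of the 8 members with at least 50 UMIs over both sections, where 5.35% of 13186 genes tested were higher and 1.52% were lower in Nf1Postn by that rule, 6.86% in all. With both sections summed, the log2 ratio of Nf1Postn to control was -1.18 for Adipoq (counting interval -1.49 to -0.89), -1.05 for Plin1 (-1.43 to -0.68) and -0.94 for Cfd (-1.13 to -0.75). For Lpl it was 0.44 (0.37 to 0.51) and for Fabp4 0.07 (0.01 to 0.13). As the mean of log2(CPM + 1) over spots, in which shallow spots weigh as much as deep ones, the ratios of Lpl and Fabp4 turned to -1.05 and -1.06, and the median of all genes moved by -0.41. Section 1 carried most of the first group's difference: the log2 ratios there were -1.46, -1.56 and -1.74 for Adipoq, Plin1 and Cfd, against -0.82, -0.45 and -0.06 in section 2. In section 1 alone 4 members (Adipoq, Cfd, Plin1 and Cidec) were at least 2-fold lower in Nf1Postn, where 2.36% of genes were. Cidec was counted there on 4 Nf1Postn UMIs, with a counting interval (-3.26 to 0.16) that included 0. In section 2 alone 0 members were, where 6.39% of genes were. The median of the 8 members was -1.15 in section 1 and -0.09 in section 2, and for all genes it was 0.09 and -0.18.

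The sections of the control alone also differed in these genes. From section 1 to section 2 of the control, Cfd was lower by a log2 ratio of -1.12, Cidec by -1.32, Plin1 by -0.84 and Adipoq by -0.61, where 0.356% of genes were lower by 2-fold or more and 1.51% differed by that much in either direction. Between the Nf1Postn sections Cfd went the other way, with section 2 over section 1 at 0.56. The ratio was -0.59 for Cebpa and 0.90 for Pparg (9 and 29 UMIs), and 5.63% of genes were past 2-fold in either direction. For Cfd the gap between the cuts of the control was larger than the gap between the genotypes with both sections summed. Fewer adipocytes under the spots and less RNA per adipocyte cannot be told apart in these counts.

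The share of spots with at least 1 UMI followed depth as well as level. Adipoq was present in 10.7% of control and 2.49% of Nf1Postn spots. After random thinning of each spot to a depth of 1000 UMIs, for which 128 control and 328 Nf1Postn spots were too shallow, the shares were 2.18% (73 of 3350; 1.71 to 2.73%) and 0.895% (23 of 2569; 0.57 to 1.34%). The thinned shares were 4.63% and 2.69% for Cfd, 1.70% and 0.701% for Plin1, 24.9% and 27.6% for Fabp4, and 16.6% and 20.4% for Lpl. In control spots where cartilage genes made up at least 5% of the UMIs, a cut set after seeing the data, thinned shares were 1.13% for Adipoq (7 of 619; 0.456 to 2.32%; median 5967.5 UMIs before thinning), 1.94% for Cfd and 1.62% for Plin1. Chondrocytes should lack these genes, so a share of this size can be background. Whether adipocytes also lay under some of these cartilage spots was not tested. At this depth the Nf1Postn shares of Adipoq and Plin1 were lower than the background values, but for both genes the intervals overlapped (for Adipoq 0.57 to 1.34% and 0.456 to 2.32%). The control shares overlapped the background within their intervals for Adipoq and Plin1. The control share of Cfd (4.63%) was above its background (1.94%), and that of Nf1Postn (2.69%) was nearer to it. The shares of Fabp4 and Lpl in both calluses were above those in the same cartilage spots (14.2% and 12.1%). Both genes are also active in other cell types, so these 2 values need not be background. The background was read in control spots only, so these shares cannot show whether the Nf1Postn signal was background.

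Spots with Adipoq lay next to each other. Around a control section 1 spot with Adipoq, 36.2% of the adjacent spots also had it, against 10.0% around spots without, with no matching for depth. The richest spots of that section held 16 UMIs of Adipoq, 42 of Cfd and 158 of Fabp4.

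**Figure D2:**
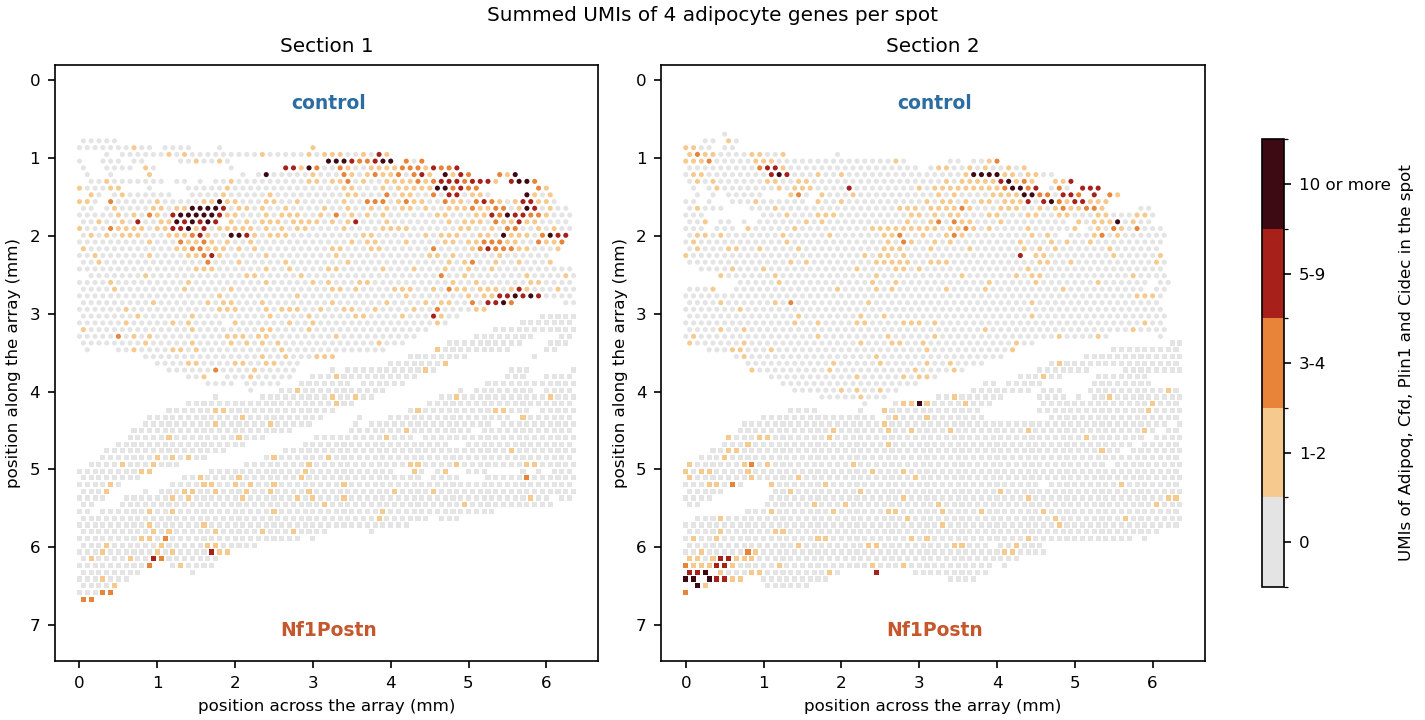
Maps of the summed UMIs of Adipoq, Cfd, Plin1 and Cidec per spot in section 1 and section 2 (axes in mm on the capture array; colour gives the number of UMIs in the spot; control spots are circles and Nf1Postn spots squares). High spots lay along the upper right border and in 1 inner cluster of the control callus in section 1, along the upper right border in section 2, and at the lower left end of the Nf1Postn tissue in section 2.

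Maps of these 4 genes showed patches of high spots, and patches were then defined, after the maps had been seen, as 3 or more joined spots with at least 3 UMIs of Adipoq, Cfd, Plin1 and Cidec together. In control section 1 there were 10 patches with 139 spots, 8.18% of its spots. Control section 2 had 2 patches with 39 spots (2.19%). Nf1Postn had 1 patch of 3 spots in section 1 (0.224%) and 2 patches of 14 spots in section 2 (0.900%), at the lower depth given above. At a minimum of 5 UMIs there were 10 and 4 patches in the control and 0 and 2 in Nf1Postn. The control patches held 67.0% and 45.9% of the Adipoq UMIs of their sections, and 9.66% and 3.16% of all UMIs. In section 2 of Nf1Postn, 14 spots held 44.9% of the Adipoq and 58.3% of the Plin1 UMIs. The largest patches had 31 and 31 spots in control section 1 and 33 spots in control section 2.

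Most patch spots lay near an edge of the tissue, which can be its rim or a hole inside it. A control section 1 patch of 4 spots lay deeper, with a median layer of 6. Of the patch spots, 73.4% and 94.9% in the control and 100% and 100% in Nf1Postn were in the outer 3 layers of spots, against 41.2%, 44.2%, 77.4% and 51.3% of all spots of the same groups. The median distance of a patch to the nearest cartilage-rich spot (at least 1% cartilage UMIs) ranged from 0 to 787 µm. By this cut 52.2% of control and 9.94% of Nf1Postn spots were cartilage-rich, so in the control a short distance does not show that patches bordered cartilage. With the cut at 2% the patch medians ranged from 0 to 4694 µm, the highest in Nf1Postn section 1. Since the 4 genes defined the patches, their own levels there are no finding.

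The remaining members, which had no part in choosing the patches, were set against all other spots of the same callus. Fabp4 had 1494 CPM in the patches and 268 CPM elsewhere in control section 1, and 1686 and 249.2 CPM in control section 2. In section 2 of Nf1Postn it had 2545 CPM in the patches and 334 CPM elsewhere, which are log2 ratios of 2.48, 2.76 and 2.93. Lpl was higher by a log2 ratio of 1.41 and 1.46 in the control and 1.86 in Nf1Postn section 2. Pparg was higher by 2.64 (28 patch UMIs) and 1.67 (6 patch UMIs) in the control. Cebpa was higher by 0.92 and 0.86, short of 2-fold. Of these 4 members, 3 (Fabp4, Lpl and Pparg) were at least 2-fold higher in the patches in both control sections, where 1.74% of 13182 genes were and 0.516% were lower. The Fabp4 UMIs outside the patches still made up most of that gene's counts: the patches held 37.3% and 18.1% of them in the control. With the patch spots left out of both calluses, a comparison added after seeing the data, the log2 ratio of Nf1Postn to control over both sections was -0.58 for Adipoq, -0.63 for Plin1, -0.26 for Cfd and 0.40 for Fabp4. The spots left out (139 and 39 in the control, 3 and 14 in Nf1Postn) were chosen by the UMIs of Adipoq, Cfd, Plin1 and Cidec, so that ratios of these genes nearer to 0 follow from the choice.

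Genes of lipid storage outside the 9 members were also read in the control patches. Of the 10 tested genes for the lipid droplet and lipolysis, 4 were 2-fold or more higher in both control sections, where 1.74% of 13182 genes were. These were Lipe, hormone-sensitive lipase (log2 ratios 2.24 and 2.04), the fatty acid receptor gene Cd36 (1.85 and 2.23), the glycerol channel gene Aqp7 (3.31 and 2.42) and the lipase inhibitor gene G0s2 (1.45 and 2.03). Pnpla2, the first lipase of lipolysis, reached 1.15 and 0.99, and Plin2, the droplet coat of many cell types, 0.22 and 0.52. The list median was 1.31 with both sections summed. Of 11 genes for fatty acid and triglyceride synthesis, 3 passed: Pck1 (4.38 and 3.996), Scd1 (2.53 and 2.496) and Dgat2 (1.77 and 2.15). Fasn had 0.81 and 0.97, and Acaca and Acly were between 0.03 and 0.25. In Nf1Postn section 2, Scd1 was higher in the patches by 4.57 (51 patch UMIs) and Lipe by 2.76 (21 patch UMIs).

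By the same rule, 1.74% of 13182 genes were higher and 0.516% lower in the control patches. Of 12 adipokines and surface proteins, 4 passed (Retn, Sncg, Trarg1 and Cav1). For adipogenic transcription factors it was 1 of 10 (Nr1h3, the liver X receptor α) and for adipose and marrow stroma 1 of 11 (Cd34, at 1.05 and 1.10). For thermogenic fat it was 2 of 6, Prdm16 and Otop1, with 3 and 1 patch UMIs in section 2. Ucp1, the uncoupling protein of brown fat, had 20 UMIs in the control and 28 in Nf1Postn, none of them in a patch. Of other cell types, Tek was the only one of 7 endothelial genes to pass, Col2a1 (1 of 5 cartilage genes) and Dmp1 (1 of 5 bone genes) were lower, and none of the skeletal muscle, macrophage or granulocyte genes passed in both sections. The median of 8 granulocyte genes was 1.83 with the control sections summed, and its part in the patch contrasts was not tested.

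**Figure D3:**
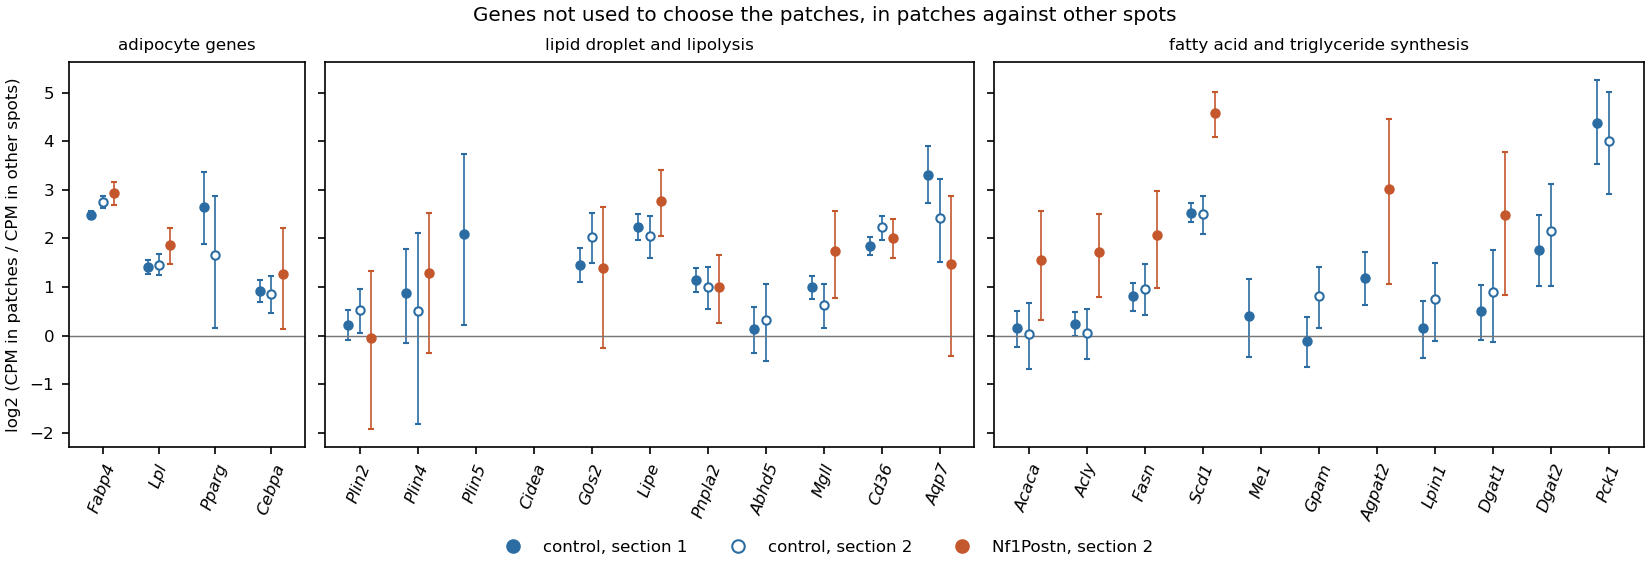
Log2 ratio of CPM in patches to CPM in all other spots of the same callus, for members not used to choose patches and for 2 lists of lipid genes, in control section 1 (filled blue), control section 2 (open blue) and Nf1Postn section 2 (orange); bars are 95% counting intervals, and values with under 3 patch UMIs are left out. Fabp4 was at 2.48, 2.76 and 2.93, and Pck1 and Aqp7 were the highest list genes in control section 1.

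Levels by distance from the tissue rim were then measured over all spots, comparing spots that touch a position without tissue (layer 1) with spots 4 or more layers in. In the control, Adipoq had 74.7 CPM in the outermost layer, 47.0 CPM in layers 2 to 3 and 14.8 CPM deeper in section 1, and 19.97, 30.6 and 14.0 CPM in section 2. In Nf1Postn it had 21.6, 6.92 and 9.63 CPM in section 1, and 38.6, 12.02 and 2.90 CPM in section 2. The outermost layer was above the deep spots in all 4, but in control section 2 the peak lay in layers 2 to 3. Cfd had 172 CPM at the rim and 37.4 CPM deep in control section 1, and 122 and 10.9 CPM in Nf1Postn section 2. Fabp4 fell from 994 to 235 CPM and from 547 to 171 CPM in the control sections.

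In the control, 3 of 8 members were at least 2-fold higher at the rim in both sections (Cfd, Fabp4 and Plin1), where 4.34% of genes were higher and 1.31% lower. In control section 1 alone 7 members passed, all but Cebpa, where 11% of genes did, and in section 2 alone 3 did, where 6.73% of genes did. In Nf1Postn it was also 3 of 8 (Adipoq, Cfd and Cidec, the last on 2 and 4 rim UMIs), where 1.9% of genes were higher and 0.478% lower. In Nf1Postn section 1 the counting intervals of Adipoq (-0.03 to 2.44, on 18 rim and 10 deep UMIs) and Cidec (-2.95 to 7.20) included 0. That of Cfd (0.51 to 2.49) did not. The median log2 ratio of the members was 1.68 in the control and 1.74 in Nf1Postn, and that of all genes 0.11 and 0.04. The Nf1Postn median was 0.57 in section 1 and 2.14 in section 2, and with spots thinned to 1000 UMIs it was 0.50, so the size of the rim excess in this callus moved with the section and with thinning. By the mean of log2(CPM + 1) over spots the medians were 0.44 and -0.0062. The rim ratio of Lpl was 1.04 and 0.89 in the control, against 0.39 and 0.56 in Nf1Postn. That of Cebpa was 0.38 and 0.14 in the control and -0.40 and -0.15 in Nf1Postn.

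**Figure D4:**
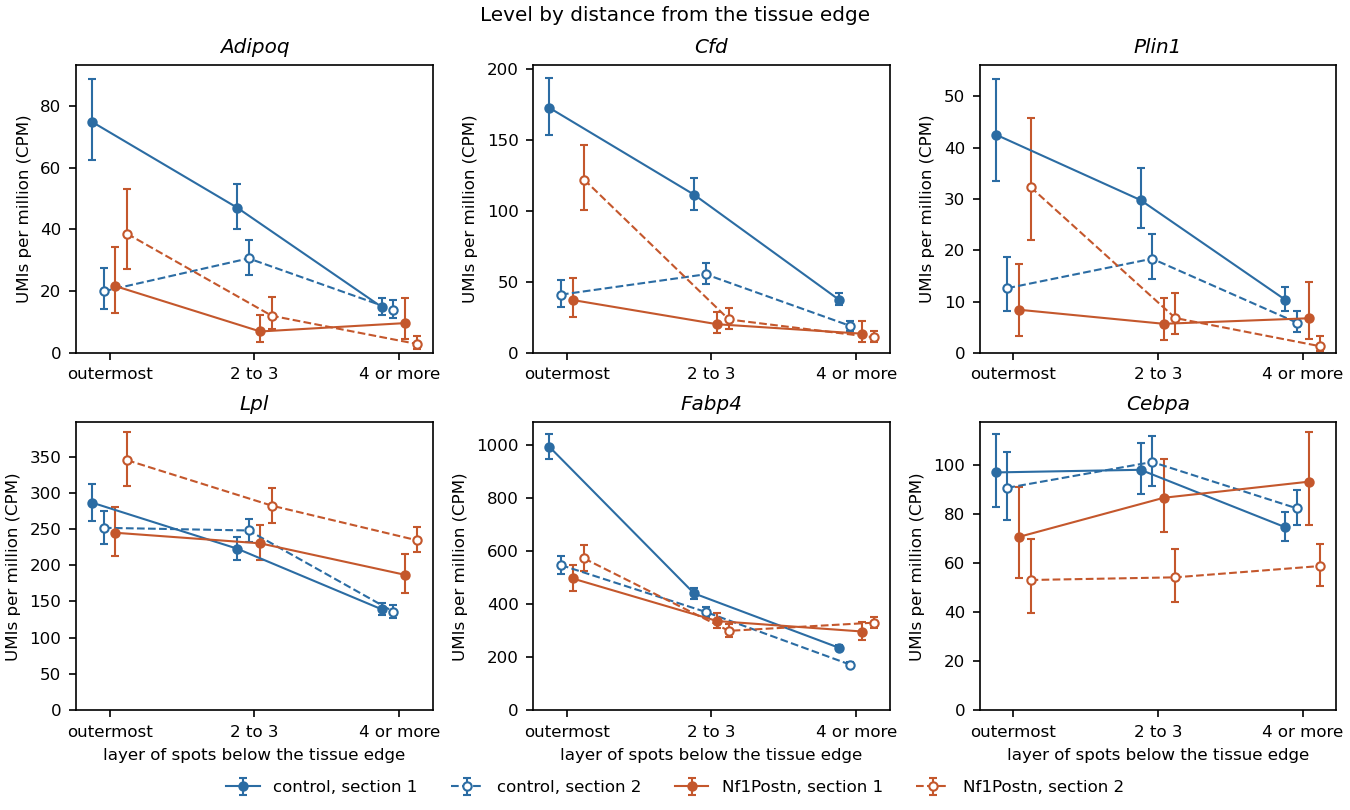
Level in CPM of 6 members by layer of spots below the tissue edge (outermost, 2 to 3, 4 or more) for each genotype and section; bars are exact 95% Poisson intervals and each gene has its own linear axis from 0. In control section 1 Adipoq had 74.7, 47.0 and 14.8 CPM from the rim inward, while Cebpa stayed between 74.5 and 98.2 CPM.

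Distance from cartilage gave no stable order. In the control, few spots lay beyond 1000 µm from a cartilage-rich spot (26 and 74), and Plin1 alone was at least 2-fold lower there in both sections, on 1 and 3 UMIs, where 2.73% of genes were lower and 4.49% higher. With cartilage-rich spots set at 2% of UMIs, the Plin1 ratio turned to 1.39 and the median of the members from -1.07 to 1.21. That first median is of both sections summed, and the medians within sections 1 and 2 were nearer to 0, at -0.63 and -0.065. Adipoq in the control had 25.7 CPM in cartilage-rich spots, 37.9 CPM up to 500 µm away and 46.5 CPM from 500 to 1000 µm in section 1, but 23.7, 18.2 and 21.4 CPM in section 2. Fabp4 was lowest in the cartilage-rich spots in both control sections, with 268 CPM against 542 and 569 CPM in section 1, and 205 CPM against 319 and 557 CPM in section 2. In Nf1Postn no member passed in both sections, where 0.455% of genes were higher and 4.24% lower. There, Fabp4 had 280 and 281 CPM within 500 µm, outside cartilage-rich spots, and 442 and 458 CPM beyond 1000 µm.

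Spots were also grouped by their transcriptomes, with all listed genes left out of the clustering, which gave 15 regions from 16777 genes. Region 10 (328 spots, led by Cfd, Cadm4 and Cxcl14) had the highest Adipoq level, 83.9 CPM (71.4 to 98.01), and also 214 CPM of Cfd, 43.3 CPM of Plin1 and 1036 CPM of Fabp4. It held 20.5% of the Adipoq UMIs and 5.39% of all UMIs, and 48.5% of its spots were in the outermost layer. All 4 groups contributed to it, with 112 and 90 control spots and 61 and 65 Nf1Postn spots. Cldn1, Gap43 and Lgi4 were also among its top genes. At a lower clustering resolution, 81 spots led by Cadm4, Gap43 and Lgi4 formed a separate region. That region had 44 and 37 Nf1Postn spots and no control spots, and its overlap with region 10 was not tested. Within region 10 Adipoq had 113 and 62.1 CPM in the control and 39.3 and 101 CPM in Nf1Postn. Cfd had 369 and 96.8 CPM against 39.3 and 248 CPM, so the genotypes overlapped for both genes. Whether the control and Nf1Postn spots of region 10 held the same tissue was not tested. Region 3 (652 spots, led by Gpnmb, Fbn2 and Lrrc15) held a further 30.1% of the Adipoq UMIs, at 31.0 CPM, and 21.4% of all UMIs. Region 10 was the most frequent region in 7 of the 15 patches.

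In the muscle-rich regions 4 and 12 Adipoq, Cfd and Cebpa were below their level over all spots and Lpl and Fabp4 were not. In the cartilage regions 9 and 13 all 5 were below it. Region 5, where the 5 muscle genes reached 55160 CPM, did not follow this for Adipoq and Cfd with all its spots summed. It held 5.68% of the Adipoq, 9.38% of the Cfd and 4.40% of all UMIs. Its 70 spots of control section 1 held 33 of its 44 Adipoq and 133 of its 159 Cfd UMIs (109 and 440 CPM). In its 395 Nf1Postn spots Adipoq had 8.95 CPM and Cfd 18.8 CPM, and in control section 2 they had 7.91 and 39.6 CPM. In regions 4 and 12, where the 5 muscle genes reached 143430 and 125047 CPM, Adipoq had 2.21 and 1.95 CPM and Cfd 9.27 and 7.79 CPM. In the same regions Lpl had 278 and 264 CPM and Fabp4 360 and 382 CPM, at or above their levels over all spots. In the cartilage regions 9 (led by Col10a1, Ihh and Snorc) and 13 (led by Ucma, Scrg1 and Cnmd), Lpl had 102 and 76.1 CPM, Fabp4 168 and 147 CPM, Adipoq 7.44 and 14.96 CPM, Cfd 16.997 and 26.9 CPM and Cebpa 54.7 and 36.9 CPM. Cebpa was highest in regions 10 and 3, at 125 and 118 CPM, whose intervals overlapped (110 to 142 and 110 to 126), and it had 23.8 and 52.6 CPM in muscle regions 4 and 12. The 5 muscle genes also reached 162534 CPM in region 14, 84887 CPM in region 15 and 79302 CPM in region 7. Adipoq had 1, 2 and 5 UMIs there (3.18, 43.4 and 9.90 CPM). Cfd had 9, 5 and 13 UMIs (28.7, 108 and 25.7 CPM). Regions 14 and 7 were thus below the level over all spots for both genes, like regions 4 and 12. Region 15 was above it for both, on 2 and 5 UMIs, with intervals (5.25 to 157 and 35.2 to 253 CPM) that included that level. Of the 649 spots of region 4, 527 came from section 2 of Nf1Postn, so muscle levels rest largely on that callus.

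**Figure D5:**
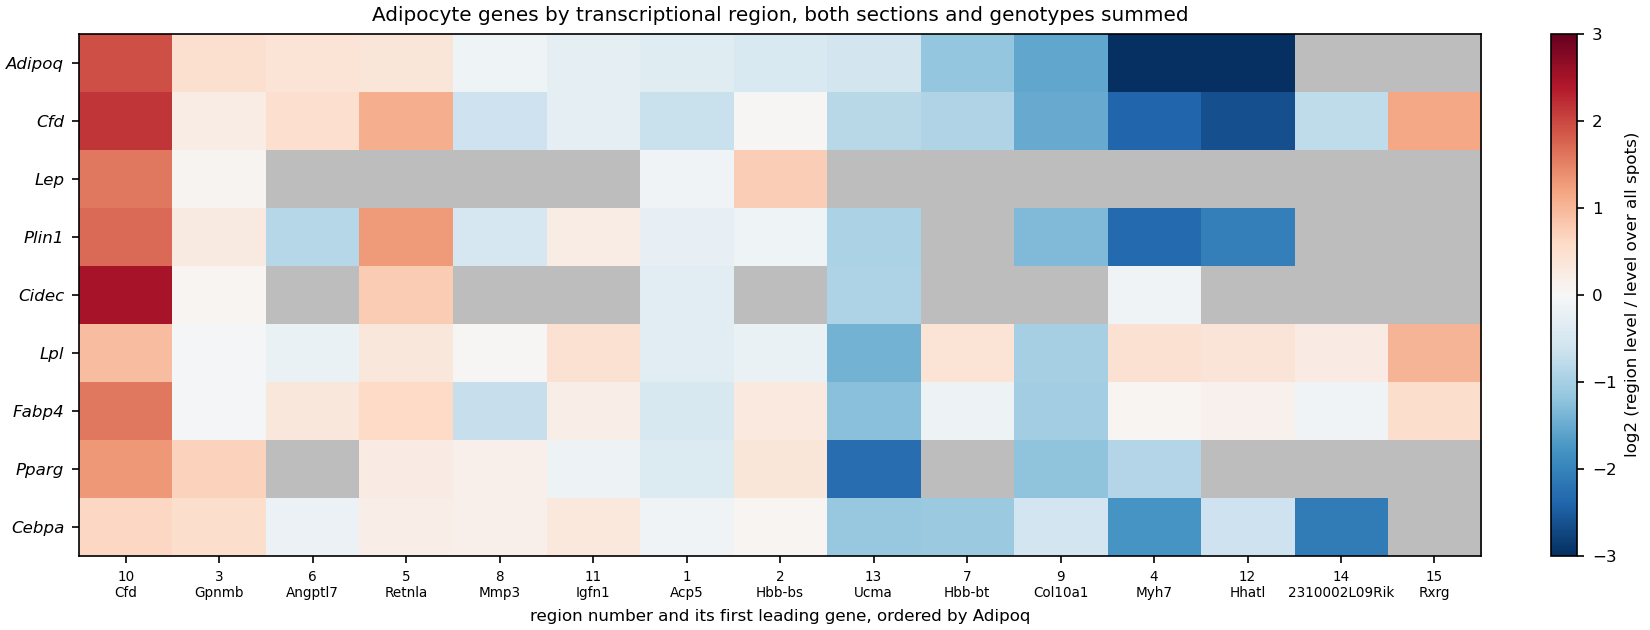
Log2 ratio of each member's level in a region to its level over all spots, for 15 regions ordered by Adipoq (columns, each with its number and first leading gene) and the 9 members (rows), with sections and genotypes summed; grey marks fewer than 3 UMIs. Region 10 was above the level over all spots for all 9 members. Lpl and Fabp4 were not below that level in the muscle regions 4 and 12, where Adipoq had 2.21 and 1.95 CPM.

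Members were also compared over square tiles of 500 µm (122 tiles in section 1 and 129 in section 2, with both calluses, on log2(CPM + 10)), which share library, mouse and depth, so correlations are given as descriptions. Pearson's r of a member with the mean of the other 8 was 0.74 and 0.69 for Adipoq, 0.77 and 0.72 for Plin1 and 0.73 and 0.71 for Cfd in sections 1 and 2. It was 0.69 and 0.47 for Fabp4, 0.42 and 0.26 for Lpl and 0.36 and 0.27 for Cebpa. With the summed muscle genes, r was -0.36 and -0.37 for Adipoq and -0.39 and -0.58 for Cebpa, but 0.05 and 0.29 for Fabp4 and 0.20 and 0.42 for Lpl. With 6 macrophage genes, r was 0.63 and 0.71 for Cebpa and 0.28 and 0.28 for Adipoq, and with 7 endothelial genes it was 0.56 and 0.50 for Cebpa, 0.47 and 0.42 for Fabp4 and 0.39 and 0.33 for Adipoq.

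The genes whose tile pattern was nearest to the mean of the 9 members, by the lower r of the 2 sections among 8623 genes with at least 500 UMIs, were led by Cyp2f2 (0.62 and 0.57), Scd1 (0.64 and 0.51), the complement gene C4b (0.53 and 0.51), the chemokine gene Ccl8 (0.57 and 0.51) and Ntrk2 (0.51 and 0.49). Kcnk3, Cxcl12, C3, Id4 and Cd34 followed, with a lower r from 0.46 to 0.48. The median lower r over the 8623 genes was 0.08. Only Scd1, Cxcl12 and Cd34 of these 10 were in a list.

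Between the calluses as a whole, the wider adipocyte lists did not move together. By the rule of 2-fold in both sections, 5.35% of all genes were higher and 1.52% lower. Of 10 lipid droplet genes, Plin4 and Plin5 were at least 2-fold higher in Nf1Postn in both sections and none was lower. Their log2 ratios were 1.39 and 2.48 for Plin4, and 1.43 and 3.36 for Plin5. Of 11 synthesis genes none passed in either direction. Of 12 adipokines and surface proteins, Slc2a4, the insulin-responsive glucose transporter of fat and muscle, and Car3 were higher, and Rbp4 was lower (-2.73 and -2.36). Of 10 adipogenic transcription factors, Klf15 and Mlxipl were higher, and of 6 thermogenic genes, Ppargc1a, Cox7a1, Cox8b and Otop1 were higher. None of the 11 stroma genes passed. Plin5, Slc2a4, Car3, Klf15, Ppargc1a, Cox7a1 and Cox8b are known to be active in skeletal muscle as well, and all 5 skeletal muscle genes were higher in Nf1Postn in both sections (list median 2.62). The part of the muscle on the sections in these ratios was not tested.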

How the data were processed

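The authors' count tables hold UMIs per gene and spot for 2 Visium FFPE sections, deposited as estimated counts that are whole numbers except for 10 entries; per the submitters' processing notes they were made with Space Ranger 1.3.0 on mm39. The unnamed entry was left out (5.24e-05% of UMIs). Genotype came from the deposited spot annotation. Here, counts were summed over spots per section and genotype, with exact Poisson and Clopper-Pearson intervals, and a group at 0 was given 3 counts. A ratio was counted when it passed 2-fold in both sections, over genes with at least 50 UMIs. Spots were clustered without the listed genes (20 components, 15 neighbours, leidenalg 0.10.2, resolution 0.5), and edgeR 4.0.16 gave TMM factors as an alternative. Ratio and correlation scripts were tested on simulated data. Named genes were the 9 members, the listed genes, the 3 leading genes of each region and the 10 genes nearest over tiles (at least 10 spots). The members and lists were chosen with earlier results of these data known. Alternatives were the scaling, minimum, thinning, distances, resolution, tile size and each section left out.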

Additional observations from a re-analysis of the deposited data

Results flagged for a closer look

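The ratio of Cebpa between the outermost layer and spots 4 or more layers in had opposite signs in the 2 calluses. On the log2 scale it was 0.27 in the control (0.38 and 0.14 in sections 1 and 2) and -0.14 in Nf1Postn (-0.40 and -0.15). Both sections of a callus had the same sign. The counting interval included 0 in control section 2 (-0.12 to 0.39) and in Nf1Postn sections 1 (-0.89 to 0.08) and 2 (-0.62 to 0.31). The difference was not tested, since each genotype was 1 mouse, and the interval of the summed Nf1Postn ratio, -0.47 to 0.19, includes 0.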

How the results depend on the processing

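No paired analysis was possible because each genotype was 1 mouse and the labels' replicate numbers are sections of 1 block. The number of members at least 2-fold lower in Nf1Postn was 0 to 4 when 1 section was left out. It was 0 without section 1 (6.39% of all genes) and 4 without section 2 (2.36% of all genes). Cidec was among the 4, on 4 Nf1Postn UMIs. By mean log2(CPM + 1) over spots the number was 1 (Cebpa), with the median of all genes at -0.47. Without the 1% of spots richest in members (chosen by the members themselves) it was 2 (Adipoq and Plin1), with that median at -0.06. Among these alternatives, the share of all genes passing is given for single sections only. The other counts of members cannot be read against it. At the rim of the control, the number higher was 3 to 7 with 1 section left out and the median 0.44 by mean log2. At the rim of Nf1Postn, the median was 0.57 to 2.14 with 1 section left out, -0.0062 by mean log2 (0 members higher) and 0.50 after thinning (1 higher), and 1 member was higher with the outermost 2 layers. For distance from cartilage in the control, the median was -0.63 to -0.065 and the number lower 2 to 3 with 1 section left out. It was -0.19 by mean log2 and 1.21 with cartilage-rich set at 2%, with 0 members lower under both and after thinning, and Plin1 turned to 1.39 at 2%. In Nf1Postn the number lower was 0 to 5 and higher 0 to 1 with 1 section left out (31% of all genes were lower in section 2 alone and 8.3% in section 1, against 8.88% and 19.5% in sections 2 and 1 of the control), and 2 were higher by mean log2. The log2 ratio of Adipoq spot shares was -2.11, and -1.28 after thinning. The Adipoq share of cartilage-rich control spots was 1.68%, and 1.13% with the class set at 5% (added after seeing the data). The highest regional Adipoq level was 43.0 CPM at resolution 0.3. The lipid droplet list median was 0.30 with all its genes. Tiles of 1000 µm kept 6 of the 10 nearest genes. The patch median of Lpl, Fabp4, Pparg and Cebpa was 1.82, and 2.33 at 5 UMIs (added after seeing the data). The causes were not tested. Cartilage-rich at 0.5% left no far spots, and only 2 spots, both in section 2 of Nf1Postn, lay beyond 2000 µm, so neither setting gave a ratio in both sections of either callus. TMM scaling moved the median of all genes by -0.14 in the genotype ratio. The genotype ratios of Adipoq, Cfd and Plin1 stayed negative in all 11 alternatives, and those of Lpl and Fabp4 kept their sign in 10 and 7. The alternatives with a minimum of 1 or 200 UMIs changed only which genes were included, so a gene's own ratio could not change there. In section 2 alone the Cfd ratio was -0.06, with a counting interval of -0.31 to 0.19.

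Limits: 1 mouse per genotype, 2 sections of 1 block, and more muscle in the Nf1Postn tissue. Spots mix cells, and thin tissue at the rim and holes inside it both count as edge. Cidec, Lep and Pparg rest on 67, 31 and 172 UMIs in all.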

Other observations

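Several of the genes nearest to the members over tiles are not known as adipocyte markers, and their levels in the patches are given as a description, since they were chosen by likeness to the genes that defined the patches. Cyp2f2, a cytochrome P450, had 77.1 CPM in the patches and 11.5 CPM elsewhere in control section 1, 68.0 and 14.3 CPM in control section 2, and 314 and 15.4 CPM in Nf1Postn section 2. The chemokine gene Ccl8 had 299 and 101 CPM in control section 1 and 397 and 132 CPM in control section 2. The complement gene C4b had 231 and 65.4 CPM, and 204 and 61.3 CPM, in the same sections. Cxcl12, a chemokine gene of marrow stroma, had 836 and 495 CPM, and 1223 and 464 CPM.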
